A study of Mus musculus with 12 samples.

Results

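Expression of 9 potassium channel genes of heart muscle was examined in infarcted and sham-operated mouse hearts. They are the inward rectifier genes Kcnj2 and Kcnj12, the G protein-gated genes Kcnj3 and Kcnj5, the ATP-sensitive channel genes Kcnj8, Kcnj11, Abcc8 and Abcc9, and the 2-pore-domain channel gene Kcnk3. A gene's members on the array were the probesets to which the platform annotation gives that single symbol, and each array's value for a gene is the median of these probesets. All 9 genes were measured, by 123 probesets in all, among 20352 genes. The hearts were of C57BL/6J mice 12 weeks of age, with no transgene named, and tissue was taken 2 weeks after surgery. The 6 infarcted samples are border zone, the muscle beside the infarct, and the 6 sham samples are from the site labelled as border zone in hearts with a sham infarct. The labels name neither the way the infarct was made nor the sex of the mice. Each sample was hybridised to 1 one-colour array, and the values are log2 signals.

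Inward rectifier channels pass potassium into the cell more readily than out of it. They hold the resting potential of working heart muscle and carry the last part of repolarisation. Channels of the ATP-sensitive type join a pore protein (Kcnj8 or Kcnj11) to a sulfonylurea receptor (Abcc8 or Abcc9), open when cellular ATP falls, and link metabolism to excitability. Channels of Kcnj3 with Kcnj5 open when G protein subunits are released by muscarinic or adenosine receptors, and are best known in atrium and pacemaker tissue. Kcnk3 encodes TASK-1, a background channel that is sensitive to acid.

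The infarcted border zone had less signal of 8 of the 9 genes (limma, Benjamini-Hochberg adjusted p under 0.05 over all genes). No member was higher by this test, and none was higher at an unadjusted p under 0.05. Over all genes, 10.2% were called lower and 10.1% higher (20.3% together, 2050 higher and 2074 lower). After median-centring of the arrays that split was 1748 higher and 2956 lower. Kcnj8 was the member that was not called. In 5 of the 9 genes every infarcted array lay below every sham array, against 5.29% of all genes, and in no member did every infarcted array lie above every sham array (5.97% of all genes). All 9 differences were below 0, as were those of 58.0% of all genes. The median difference of the 9 genes was -0.48 on the log2 scale (infarcted minus sham), against -0.04 over all genes. Bulk tissue cannot tell fewer cells of a type from less RNA per cell.

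**Figure D1:**
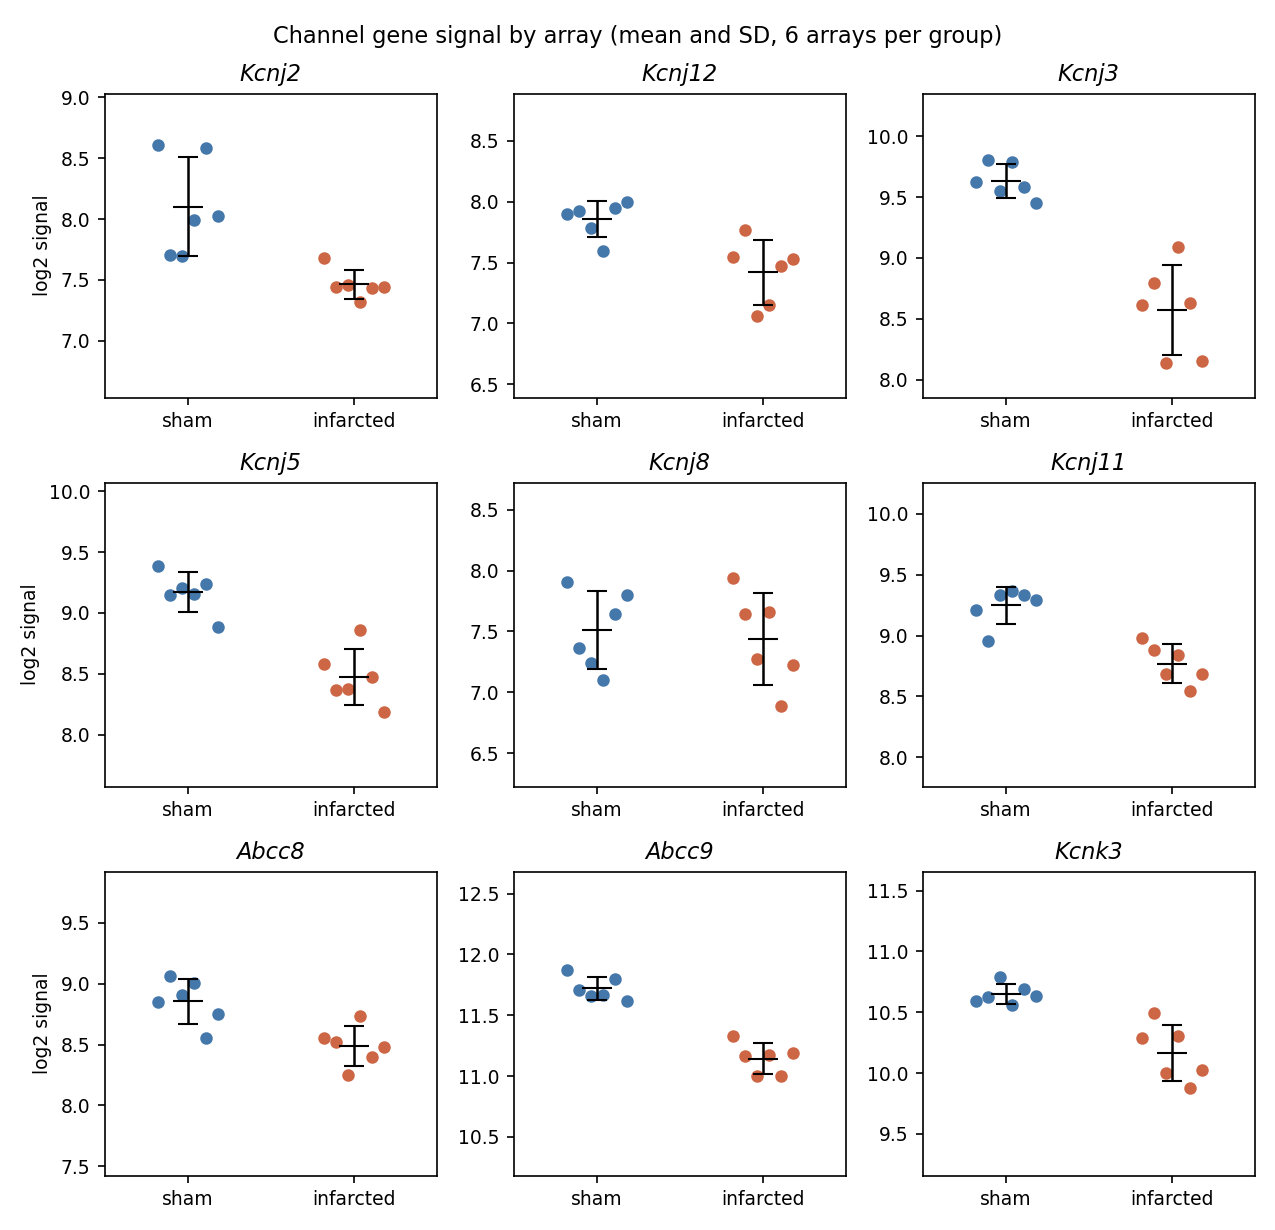
Log2 signal (y axis, each panel spanning the same range of log2 units) of the 9 channel genes in the sham and infarcted arrays, with the group mean and SD over 6 arrays. All panels but that of Kcnj8 show the infarcted group lower, and in Kcnj2, Kcnj3, Kcnj5, Abcc9 and Kcnk3 the groups do not overlap.

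Array brightness was nearly equal, with medians from 6.997 to 7.026 in sham and from 7.045 to 7.058 in infarcted arrays. Heart muscle was borne out by 12 cardiomyocyte markers, whose mean signal lay between 13.1 and 13.2 in every array. These markers cannot tell border zone from other heart muscle. None of these 12 passed the test, and Myh6 (-0.18, adjusted p = 0.0688) came nearest, but this count depended on the setting. With the mean over probesets 6 of the 12 were called lower, with median-centring or the trended robust prior 4, and without sham replicate 3 it was 1. All 8 fibroblast markers rose, led by Mfap5 (2.37), and their mean signal went from 9.11 to 9.38 in sham arrays to 10.5 to 10.9 in infarcted arrays. Of 8 macrophage markers 6 rose and none fell (1 fell without sham replicate 6), with the smallest p for Adgre1 (0.91). No endothelial marker of 9 was called (Cdh5 0.24, adjusted p = 0.076). However, 1 was higher with the mean over probesets, with the trended robust prior or without sham replicate 5, and 2 without infarcted replicate 2. Of 6 Schwann and neuronal markers 1 rose, Uchl1 (1.001). The mean of 5 atrial markers reached 7.69, 6.63 and 6.36 in infarcted replicates 4, 5 and 6, against 5.31 to 6.13 in sham arrays and 5.25 to 5.31 in the other infarcted arrays. None of the 5 was called (Myl4 0.98, adjusted p = 0.203), and 4 had a sham mean under 6. Infarcted replicate 5 also had the highest mean of 8 adipocyte markers, at 7.07 against at most 5.62 elsewhere. None of these 8 was called (Ucp1 -0.30, adjusted p = 0.147).

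Kcnj2 and Kcnj12 encode the pore proteins of the ventricular inward rectifier current. Kcnj2 had a lowest, median and highest signal of 7.70, 8.01 and 8.61 in sham arrays and of 7.32, 7.44 and 7.68 in infarcted arrays. The groups did not overlap, although the gap between them was only 0.015. Sham arrays spread widely (SD 0.41), because replicates 1 and 5 stood at 8.61 and 8.58 and the others at 7.70 to 8.02, while infarcted arrays had an SD of 0.12. Kcnj2 fell by 0.64 ± 0.15 (SE), which is 35.8% less signal (95% interval 19.3 to 48.9%, limma adjusted p = 0.0088). Kcnj12 had a lowest, median and highest signal of 7.59, 7.91 and 8.002 in sham arrays and of 7.06, 7.50 and 7.77 in infarcted arrays. Of the infarcted arrays 5 lay below the lowest sham array. Kcnj12 fell by 0.44 ± 0.12 (SE), or 26.1% (interval 12.2 to 37.9%, adjusted p = 0.0159). Without infarcted replicates 4 and 5 it differed by -0.38 and was not called (adjusted p = 0.0668).

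Kcnj3 and Kcnj5 encode the partner subunits of the channel that acetylcholine opens. Kcnj3 showed the largest fall of the 9 genes, and only 16 of the 20352 genes, Kcnj3 included, had a difference as low. Its lowest, median and highest signals were 9.45, 9.61 and 9.80 in sham arrays and 8.14, 8.62 and 9.09 in infarcted arrays. The groups stood apart by a gap of 0.36. Kcnj3 fell by 1.06 ± 0.14 (SE), or 52.1% (interval 40.7 to 61.4%, adjusted p = 0.000133). Kcnj5 had signals of 8.88, 9.18 and 9.38 in sham arrays and of 8.19, 8.42 and 8.86 in infarcted arrays, again without overlap but with a gap of only 0.024. It fell by 0.70 ± 0.11 (SE), or 38.3% (interval 27.4 to 47.5%, adjusted p = 0.000438). Infarcted replicate 4, with the most atrial marker signal, had the highest value of both genes among infarcted arrays. Replicates 5 and 6, whose atrial marker means also lay above every sham array, did not share this. They stood at 8.63 and 8.15 for Kcnj3 and at 8.47 and 8.19 for Kcnj5, the last being the lowest Kcnj5 value. Without replicates 4 and 5 the differences were larger, at -1.21 for Kcnj3 and -0.79 for Kcnj5 (adjusted p = 9.28e-05 and 0.00033).

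RefSeq promoter windows were at hand for 6 of the 9 genes, namely Kcnj2, Kcnj12, Kcnj3, Kcnj5, Kcnj8 and Abcc9. Stretches of Kcnj3 and Kcnj5 are shown because these partner genes fell together, and those of Abcc9 and Kcnj8 because these neighbouring genes of chromosome 6 encode partner proteins of which only Abcc9 was called. Each stretch runs 5′ to 3′ on the gene's strand over 170 bases of build GRCm38.p6, 150 before the annotated start and 20 from it on. Capitals mark an E-box (CANNTG) or, next to the start in Abcc9, a match to the MEF2 consensus.
Kcnj3 (chr2:55435820-55435989, plus strand): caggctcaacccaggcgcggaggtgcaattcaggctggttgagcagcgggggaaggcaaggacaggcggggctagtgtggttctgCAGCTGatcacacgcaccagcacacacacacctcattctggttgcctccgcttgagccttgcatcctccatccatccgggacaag
Kcnj5 (chr9:32344325-32344494, minus strand): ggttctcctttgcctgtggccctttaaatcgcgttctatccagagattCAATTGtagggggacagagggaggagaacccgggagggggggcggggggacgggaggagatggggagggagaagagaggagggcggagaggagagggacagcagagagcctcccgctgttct
Abcc9 (chr6:142702255-142702424, minus strand): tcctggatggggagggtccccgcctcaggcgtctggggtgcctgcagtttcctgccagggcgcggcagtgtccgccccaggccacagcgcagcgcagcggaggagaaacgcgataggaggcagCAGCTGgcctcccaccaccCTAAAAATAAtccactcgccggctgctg
Kcnj8 (chr6:142571595-142571764, minus strand): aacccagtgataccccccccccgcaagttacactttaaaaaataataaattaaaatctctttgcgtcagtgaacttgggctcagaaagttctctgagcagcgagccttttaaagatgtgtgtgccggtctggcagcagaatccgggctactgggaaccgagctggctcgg

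Both strands of these 170 bases were searched for 8 motifs. The letters were CANNTG for the E-box, GGGCGG for the GC box and TATAAA for the TATA box. A GATA motif was read as AGATAA or as the like sequence TGATAA. The cyclic AMP response element was TGACGTCA. The element of ERR factors was TNAAGGTCA. The MEF2 and CArG consensus sequences were searched as well. Motifs were free to overlap each other. An E-box was present in the Kcnj2, Kcnj3, Kcnj5 and Abcc9 stretches, and in 52.2% of 32851 promoters cut to the same length. The match to MEF2, a family of muscle transcription factors, lay at positions -8 to 2 of Abcc9 and was the only one in the 6 stretches, against 1.77% of all promoters. A GATA motif was found in Kcnj2 alone (10.7% of promoters), and a GC box in Kcnj2, Kcnj5 and Abcc9 (30.3%). None of the 8 motifs was in the Kcnj8 or Kcnj12 stretch. TATAAA (8.1% of promoters), the ERR element (0.651%), the cyclic AMP element (1.54%) and the CArG box (0.977%) were in none of the 6. These matches describe letters and do not show binding. In GC content the Kcnj8 stretch was the lowest of the 6, at 49.4%, and the others had 59.4 to 67.6%.

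The ATP-sensitive channel genes lie as neighbours on the mouse genome, Kcnj11 beside Abcc8 on chromosome 7 and Kcnj8 beside Abcc9 on chromosome 6. Kcnj11 encodes the pore of the channel in ventricular muscle. Its lowest, median and highest signals were 8.95, 9.31 and 9.36 in sham arrays and 8.54, 8.76 and 8.98 in infarcted arrays. The overlap came from sham replicate 2 at 8.95, and 5 infarcted arrays lay below it. Kcnj11 fell by 0.48 ± 0.09 (SE), or 28.3% (interval 17.8 to 37.4%, adjusted p = 0.00195). Abcc9 encodes SUR2, the sulfonylurea receptor of ventricular and vascular channels, and had the smallest p of the 9 genes. Its signals were 11.62, 11.69 and 11.87 in sham arrays and 10.9997, 11.17 and 11.33 in infarcted arrays. The groups were separated by a gap of 0.29. Abcc9 fell by 0.58 ± 0.07 (SE), or 33.0% (interval 25.2 to 40.0%, adjusted p = 8.7e-05).

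Abcc8 encodes SUR1, the receptor of the pancreatic beta cell channel, which mouse atrium also uses. Its signals were 8.56, 8.88 and 9.07 in sham arrays and 8.25, 8.504 and 8.74 in infarcted arrays. Of the infarcted arrays 5 lay below the lowest sham array, and the exception was replicate 4, the array with the most atrial marker signal. Infarcted replicates 5 and 6, also with raised atrial markers, stood at 8.40 and 8.48. Abcc8 fell by 0.37 ± 0.10 (SE), or 22.4% (interval 10.2 to 33.0%, adjusted p = 0.0168). Without infarcted replicates 4 and 5 it differed by -0.40 (adjusted p = 0.0235). The part of atrial tissue in the values of Kcnj3, Kcnj5 and Abcc8 was not tested beyond leaving out replicates 4 and 5, which keeps replicate 6.

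Kcnj8 encodes the pore of ATP-sensitive channels of vascular smooth muscle and pericytes. Its signals were 7.10, 7.51 and 7.91 in sham arrays and 6.89, 7.46 and 7.94 in infarcted arrays. The groups covered nearly the same range, with 3 infarcted arrays below and 3 above the sham mean. The difference was -0.07 ± 0.18 (SE, adjusted p = 0.824). Its 95% interval runs from -0.45 to 0.31, so a fall as large as 27.0% is within the error and the data do not show that Kcnj8 was unaltered. Its sign turned with single arrays left out, to 0.0068 without sham replicate 1 and 0.037 without infarcted replicate 5.

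Kcnk3 had signals of 10.56, 10.63 and 10.79 in sham arrays and of 9.88, 10.16 and 10.49 in infarcted arrays. Sham arrays were close together (SD 0.082) and infarcted arrays more spread (SD 0.23), with a gap of 0.072 between the groups. Kcnk3 fell by 0.48 ± 0.10 (SE), or 28.5% (interval 17.2 to 38.2%, adjusted p = 0.00299). All 6 infarcted arrays were below every sham array.

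The depth of the fall differed among the infarcted arrays, with 1 array per sample. Averaged over the 8 genes that fell, which leaves out Kcnj8, infarcted replicate 3 was 0.78 below the sham mean, replicate 6 was 0.69 below and replicate 5 was 0.68 below. Replicates 1, 2 and 4 were 0.46 to 0.48 below. On the same measure the sham arrays deviated from the sham mean by -0.07 to 0.10. Infarcted replicates 3 and 5 gave the lowest infarcted value of 3 of these 8 genes each, and replicates 1 and 4 the highest of 3 each. Replicate 3 also had the highest mean of the fibroblast markers (10.87, against 10.47 to 10.66 in the other infarcted arrays), and whether this bears on the channel values was not tested.

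Single probesets, most of which cover part of a gene, gave the same direction in 120 of 123 cases. Most belong to Abcc9 (45) and Abcc8 (39), and probesets of a gene read on the same arrays are not independent. The share of all probesets below 0 was not counted (58.0% for genes). Of the 123, 70 were called lower and none higher when all 241576 probesets were tested (limma), where 4.3% were called lower and 6.39% higher. None of the 3 probesets above 0 was called, and at an unadjusted p under 0.05 1 was higher. All 6 Kcnj3 probesets were called, with differences from -1.13 to -0.75. Of 45 Abcc9 probesets 40 were called, from -0.83 for the largest fall to -0.03 for a dim one. Only 6 of the 39 Abcc8 probesets passed singly, although 37 were below 0, with a median of -0.32. Of the 7 Kcnj12 probesets 3 were called, and these fell by 0.62 to 0.80, while the other 4 differed by -1.20 to -0.12.

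The Kcnj8 probesets disagreed with each other. The brightest, at 10.04 and 9.99 in sham arrays, differed by -0.05 and -0.18 (adjusted p = 0.873 and 0.453). A dim probeset at 4.66 in sham arrays fell by 0.56 (adjusted p = 0.0176), and a probeset at 5.68 differed by 0.61 in the other direction (adjusted p = 0.15). The gene value equals the probeset of middle brightness in each array. None of the 9 genes was called for probesets that changed unequally (limma diffSplice, F test, adjusted p from 0.0536 for Kcnj12 and 0.0713 for Abcc9 to 1), against 9.34% of 15004 genes. At an unadjusted p under 0.05 there were 3, namely Kcnj12, Abcc9 and Kcnj8. This test also called 126 of 14804 unchanged genes in simulated data, so its calls in any setting are to be read with caution.

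**Figure D2:**
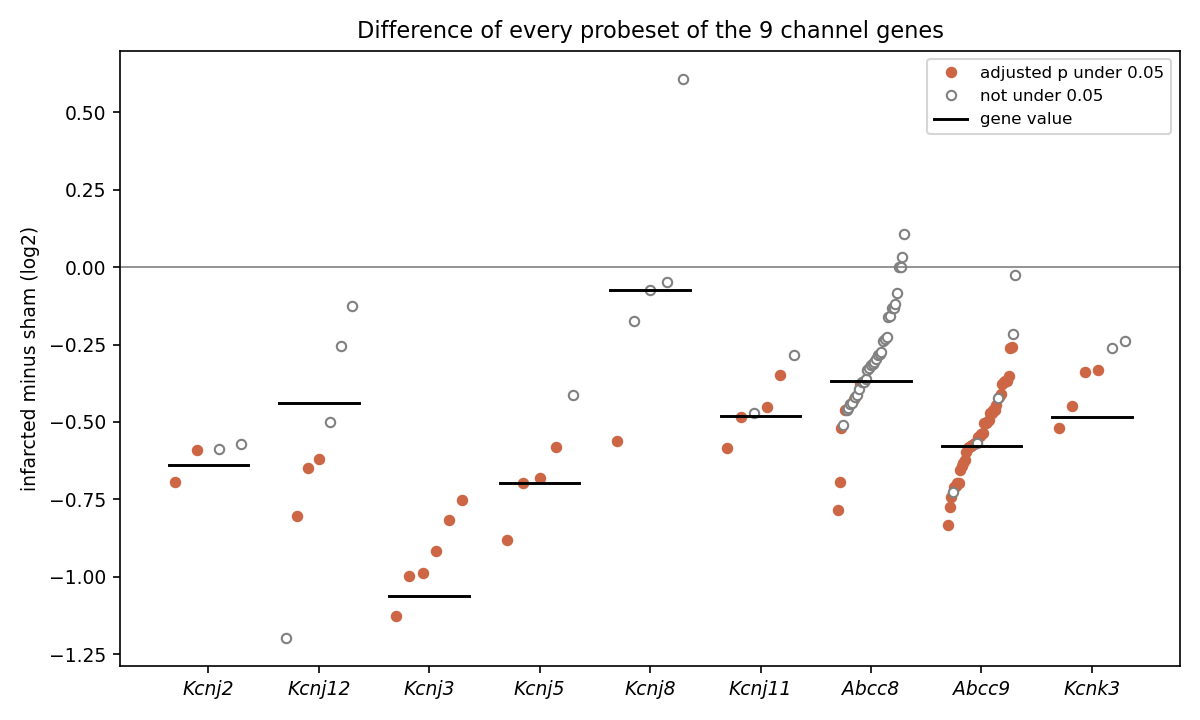
Difference between infarcted and sham arrays (y axis, log2) of each of the 123 probesets of the 9 genes, sorted within a gene, with filled points for an adjusted p under 0.05 over all probesets and a line at the gene value. Of the points 120 lie below 0, and the 3 above it belong to Abcc8 and Kcnj8.

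Whether partner genes fell by unequal amounts was examined within each array, by an exact permutation test over the 924 ways of choosing 6 of 12 arrays (two-sided, Benjamini-Hochberg adjusted over 18 such tests). Kcnj3 fell more than its partner Kcnj5, by 0.37 (exact adjusted p = 0.026), and each of the 6 infarcted values lay under the sham mean of the difference. Without infarcted replicates 4 and 5 this was 0.41 and not called (exact permutation adjusted p = 0.06). Kcnj8 minus Abcc9 was higher in infarcted arrays by 0.50 (exact adjusted p = 0.0283), so these neighbours changed unequally. That call ended when sham replicate 2, 3 or 4 or infarcted replicate 1 was left out (exact adjusted p from 0.0519 to 0.0567, with values from 0.43 to 0.48).

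The pore genes Kcnj11 and Kcnj8 differed by -0.41 in their change, with each of the 6 infarcted values under the sham mean, but this did not pass (exact permutation adjusted p = 0.0584). It passed without sham replicate 1 or infarcted replicate 5 (exact adjusted p = 0.0283 and 0.039), with the mean over probesets (-0.39, exact adjusted p = 0.039) and with dim probesets left out (-0.36, exact adjusted p = 0.026). Abcc8 minus Abcc9 was 0.21 higher in infarcted arrays (exact adjusted p = 0.108). Kcnj11 changed by -0.11 relative to Abcc8 (exact adjusted p = 0.431) and by 0.10 relative to Abcc9 (exact adjusted p = 0.384). Kcnj2 changed by -0.20 relative to Kcnj12 (exact adjusted p = 0.384), where the spread of sham arrays was 0.39 (SD).

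**Figure D3:**
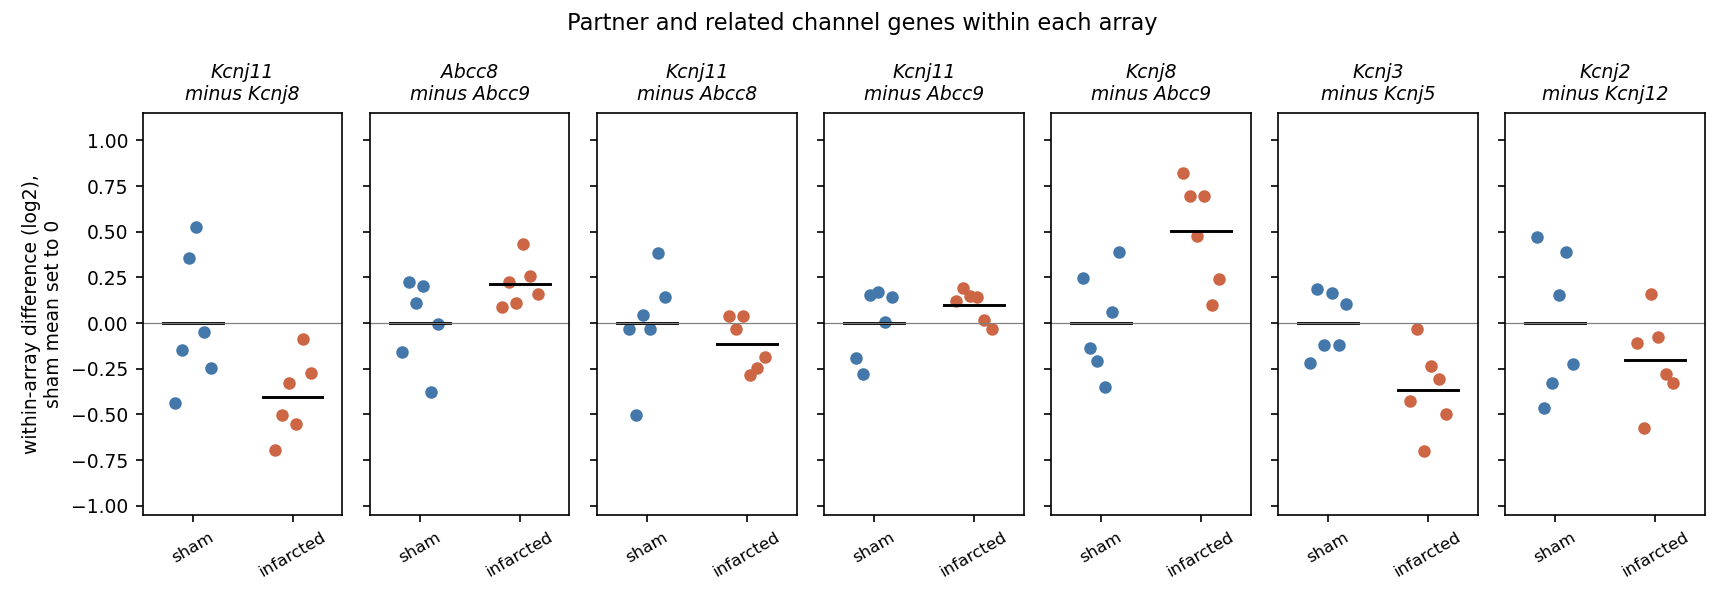
Within-array difference of 7 pairs of channel genes (y axis, log2, with the sham mean of each pair set to 0), by array, with a line at each group mean. The infarcted means lie at -0.37 for Kcnj3 minus Kcnj5 and at 0.50 for Kcnj8 minus Abcc9, the pairs that passed.

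Relative to the mean of the 12 cardiomyocyte markers of the same array, 8 of the 9 genes were lower in infarcted hearts. The difference was -0.999 for Kcnj3, -0.63 for Kcnj5, -0.57 for Kcnj2 and -0.51 for Abcc9 (exact permutation adjusted p from 0.00974 to 0.0111). It was -0.42 for Kcnk3, -0.42 for Kcnj11, -0.37 for Kcnj12 and -0.30 for Abcc8 (exact adjusted p from 0.00974 to 0.0283). For Kcnj8 it was -0.0088 (exact adjusted p = 0.963), and its sign turned under other settings. The call for Abcc8 ended without sham replicate 2, 3 or 4 (exact adjusted p = 0.0506 each, from -0.29 to -0.26), and that for Kcnj2 without infarcted replicates 4 and 5 (-0.54, exact adjusted p = 0.0701). The marker mean differed by -0.06 between the groups. These markers are near the top of the measured range (14.37), where arrays can understate a change.

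Pericytes express Kcnj8 and Abcc9 as well, and 3 of 9 pericyte markers rose and none fell, among them Pdgfrb (0.51, adjusted p = 0.00796). After median-centring of the arrays 2 rose and 1 fell, and 1 also fell under quantile normalization, with the mean over probesets, with dim probesets left out, and without sham or infarcted replicate 1. The mean of these markers ranged from 8.58 to 8.83 in sham and from 8.63 to 8.86 in infarcted arrays, and no marker lay below 6 in sham hearts. Relative to it, Abcc9 was lower in infarcted hearts by 0.69 (exact permutation adjusted p = 0.00974, 6 of 6 values under the sham mean). Kcnj8 differed by -0.18 relative to it (exact adjusted p = 0.431, 3 of 6 below). Of 7 smooth muscle markers 3 rose, led by Tagln (0.74, adjusted p = 0.000376), and their array means went from 7.76 to 8.17 in sham to 8.29 to 8.48 in infarcted hearts. Their part in the Kcnj8 and Abcc9 values was not tested further.

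**Figure D4:**
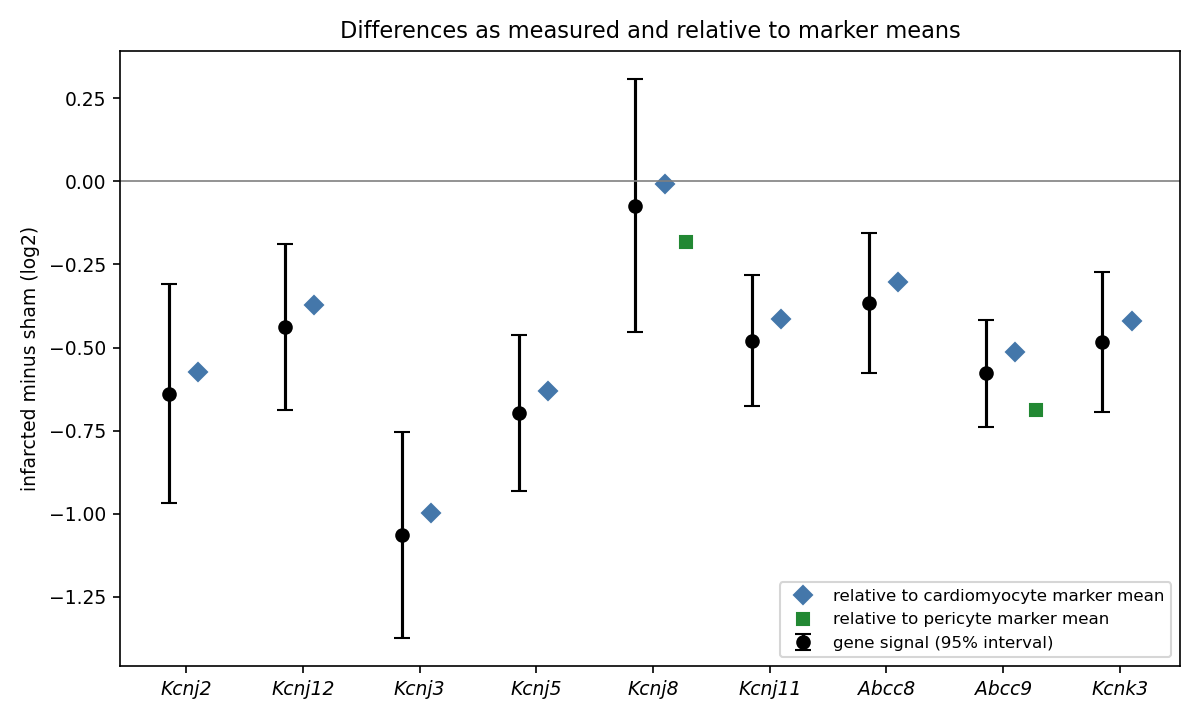
Infarcted minus sham difference (y axis, log2) of the 9 genes as measured, with its 95% interval from limma (circles), and relative to the mean of cardiomyocyte markers (diamonds) or of pericyte markers (squares, Kcnj8 and Abcc9). The interval of Kcnj8 alone includes 0, and the diamonds lie close to the circles.

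The other channels of these families were mostly dim. All 9 other inward rectifier genes had a sham mean under 6, and 1 was called, Kcnj15, which rose from 5.84 ± 0.24 to 6.50 (SD, n = 6 per group, difference 0.66, adjusted p = 0.00409). Of 13 other 2-pore-domain genes none rose and Kcnk16 fell by 0.39 (limma adjusted p = 0.0224, none higher at an unadjusted p under 0.05). That call rests on dim signal, since without dim probesets Kcnk16 differed by -0.11 (adjusted p = 0.61). It also ended without sham replicate 4 or infarcted replicate 6 (adjusted p = 0.0522 and 0.0517). Median-centring of the arrays gave 3 of the 13 called lower, and 2 were lower with the mean over probesets, without sham replicate 1 and under the replicate block. The medians of the inward rectifier and 2-pore-domain lists were -0.0064 and -0.04. Over all genes 10.2% were called lower and 10.1% higher.

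Among voltage-gated channels, 7 of 26 genes fell and 3 rose, against 10.2% and 10.1% of all genes. The median was -0.15, and 11 of the 26 had a sham mean under 6. In 7 of the 26, counting either direction, the groups did not overlap (over all genes 5.29% lower and 5.97% higher). Kcnv2, a silent modulatory subunit, fell by 1.72, and Kcnd2 and Kcnip2, the pore and the auxiliary subunit of the fast transient outward current, fell by 0.85 and 0.79. Kcna4, the pore of the slow transient outward current, rose by 0.55 (adjusted p = 0.00331). Of 10 calcium- and sodium-activated channels 2 fell and 2 rose, with a median of -0.05, and without infarcted replicates 4 and 5 only 1 fell. Kcnma1, the large-conductance channel of smooth muscle, rose by 1.93 from a dim sham signal of 4.61, Kcnt2 rose by 0.82, and the small-conductance channel gene Kcnn2 fell by 0.63.

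Of 9 other ABCC genes, relatives of Abcc8 and Abcc9, 2 rose and 1 fell, with a median of -0.06. By the same test 10.1% of all genes rose and 10.2% fell. Abcc3, an export pump, rose by 0.62 (adjusted p = 0.0051). The calls for Abcc5 (0.31) and Abcc4 (-0.27) were unstable: each ended in 10 of 19 other settings (adjusted p up to 0.132 and 0.0911). Among 17 genes that bring or limit receptor and G protein input to Kcnj3 and Kcnj5, 3 rose and 2 fell. Their median was 0.09, which has no single direction for that input. The count of rises depended on the setting, at 8 with the mean over probesets and 6 with the trended robust prior, with 2 falls in both. Rgs2, which speeds G protein inactivation, fell by 0.87 (adjusted p = 0.00219), its relative Rgs4 rose by 0.42 (adjusted p = 0.00464), and the G protein gene Gnao1 rose by 0.64 (adjusted p = 0.000986). Chrm2, the muscarinic receptor of heart muscle, was lower by 0.32 (adjusted p = 0.00475), and was named after its value was seen.

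Among 14 genes of scaffolds and phosphoinositide kinases that act on inward rectifiers, the median difference was -0.02. Of the 14, 4 fell and 3 rose, against 10.2% and 10.1% of all genes. Only 2 fell when sham replicate 1 or 3 or infarcted replicate 1, 3 or 6 was left out, under the replicate block, or without infarcted replicates 4 and 5. Rises numbered 2 after median-centring or quantile normalization, under the replicate block, and with most single arrays left out. Ank2, which encodes the anchoring protein ankyrin-B, fell by 0.41 (adjusted p = 0.000878). Apba1, a scaffold protein gene, rose by 0.47 and Pip5k1c, a kinase that makes the lipid these channels need, rose by 0.38 (adjusted p = 0.00257 and 0.00289). Kcnj11 and Abcc8 are best known from pancreatic islets, and the 4 islet markers measured had sham means of 3.74 to 6.18. Ins2 was called (-0.28, adjusted p = 0.0341), but not under 13 of 19 other settings.

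**Figure D5:**
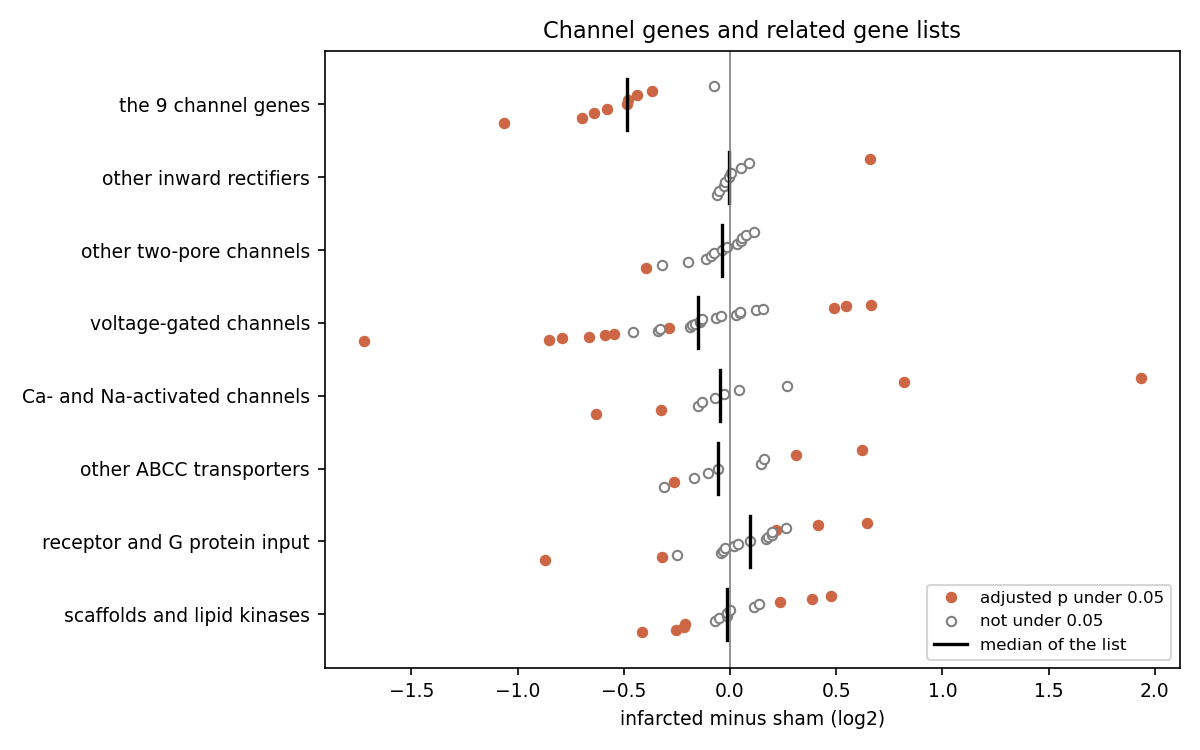
Infarcted minus sham difference (x axis, log2) of the 9 channel genes and of each gene of 7 related lists, with filled points for an adjusted p under 0.05 over all genes and a bar at the list median. The 9 genes have a median of -0.48, and the related lists have medians from -0.15 to 0.09. The lists differ in brightness, since the lowest sham mean of the 9 genes is 7.51. A sham mean under 6 is found in 9 of 9 other inward rectifier, 8 of 13 other 2-pore-domain and 11 of 26 voltage-gated genes. In the voltage-gated list 7 genes fell and 3 rose, with Kcnv2, Kcnd2 and Kcnip2 at -1.72, -0.85 and -0.79.

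The 2 genes most like each called member were those with the smallest root-mean-square difference over the 12 arrays, after each gene was centred on its own mean. For Kcnj3 these were Gpt2, an alanine aminotransferase (0.142), and Rbfox1, a splicing regulator (0.176), against an SD of 0.62 of Kcnj3 over the arrays. A further 2 predicted genes ranked between them. Abcc9 was most like Nnt, the mitochondrial transhydrogenase (0.0701), and Prxl2a (0.0741). Kcnk3 was most like Fsd2 (0.0705) and Unc45b, a myosin chaperone (0.0736). Kcnj11 was nearest to Extl1 (0.0713) and Gfm1 (0.088), and Kcnj5 to the plexin gene Plxnb1 (0.118) and Dhdh (0.126). Abcc8 was nearest to Trmt5 (0.0873) and the neuregulin receptor gene Erbb4 (0.0889). Kcnj12 was nearest to Ccnh (0.115) and Dkc1 (0.121). The largest differences were those of Kcnj2, with Gzmm (0.197) and Ttc38 (0.212). These pairings share the group difference and the array, and were picked from all genes.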

How the data were processed

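Gene expression of 12 heart samples was measured on one-colour arrays. Affymetrix Power Tools is the software listed by the submitters' processing notes. Summary method, background correction and normalization were not stated. The deposited log2 values are 1 per probeset and array; the log base is judged from their range (1.52 to 14.37) and is not stated. Of 241576 probesets, 212097 had 1 gene symbol (GEO's platform annotation, other genes' symbols updated through RefSeq synonyms, members as annotated), 4475 several and 25004 none. No probeset with several symbols named a member.

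Medians over probesets were tested two-sided in R 4.3.3 with limma 3.58.1, by eBayes after lmFit, adjusting over 20352 genes (Benjamini-Hochberg, threshold 0.05). Dim probesets were those under the 30th percentile of mean signal (5.58), left out only for diffSplice and where stated. Signal near background understates changes. Replicates are called biological in the series text. The same numbers 1 to 6 occur in both groups, with no pairing named. No batch or scan date was at hand, so neither could be examined.

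Alternatives were the mean over probesets, median-centred or quantile-normalized arrays, dim probesets left out, a trended robust prior, a replicate block, each array left out, and infarcted replicates 4 and 5 left out together. Members and lists were chosen with earlier results of these data known. Some list members were not analysed here. Named were all 9 members, up to 3 called genes per related list with the smallest p plus the best one in the other direction (or the best gene where none was called), the marker with the smallest p per list, and 2 most-like genes per called member. In simulated data (20352 genes, 200 changed) log2 changes of size 1 were found in 95.5% of cases, of size 0.5 in 65.7% and of size 0.25 in 1.49%. Calls included 5 of 20152 unchanged genes. In the measured data 20.3% of genes were called. The adjustment depends on that share, so the simulated rates need not hold for the measured comparison. Simulated diffSplice calls included 126 of 14804 unchanged genes, 38.9% of its calls. Only 200 genes were changed there, against 1401 called in the measured data, so that share does not carry over. Figures were drawn with matplotlib 3.10.9.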

Additional observations from a re-analysis of the deposited data

How the results depend on the processing

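The count of 8 lower and 0 higher members was the same under 18 of 19 alternatives, and was 7 and 0 without infarcted replicates 4 and 5, when Kcnj12 was lost. The labels name no pairing, and deviations of same-numbered samples were hardly correlated (-0.0514 to 0.101), which does not exclude one. For sham replicates 1 and 4 the same-numbered infarcted sample was the best match. With the replicate block the count of members stayed at 8, 28 genes of the related lists were called in place of 31, and 12 of the 18 within-array tests passed in place of 11. Under the block the exact test was a different one. It exchanged the groups only within same-numbered pairs, in place of the 924 choices of arrays. Kcnj8 minus Abcc9 then no longer passed (exact adjusted p = 0.13), while Kcnj11 minus Kcnj8 and Abcc8 minus Abcc9 did (exact adjusted p = 0.0469 each). The value 0.0469 stands for the smallest unadjusted p this test could give, adjusted over the 18 tests. It shows only that all same-numbered pairs differed in one direction. As no pairing is named, these calls and the count of 12 carry little weight. With the mean over probesets Abcc8 minus Abcc9 passed too (0.21, exact adjusted p = 0.00866). The diffSplice count of 0 members became 1 with all probesets kept (Kcnj8), 2 with the replicate block (Abcc9 and Kcnj8), and 0 to 1 with an array left out. Over all genes 1525 of 18093 were called with all probesets kept and 1583 of 15004 with the block. With an array left out it was 1068 to 1404 of 15004. Kcnj8 was 0.0088 without infarcted replicates 4 and 5, and between -0.17 and 0.037 with 1 array left out. Kcnj8 relative to cardiomyocyte markers was 0.044 with the mean over probesets, 0.065 without infarcted replicates 4 and 5, and -0.10 to 0.091 with 1 array left out. The number of arrays and dim signal limit what can be seen.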
